A study of Mus musculus with 11 samples.

Results

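The genes that bring secretory proteins into the endoplasmic reticulum (ER), cut off their signal peptides and attach their first sugars were followed across cell fractions sorted by FACS from mouse islets. Members were all rows of the count table whose symbol belongs to the signal recognition particle (SRP), its receptor, the Sec61, Sec62 and Sec63 translocon, the TRAM and TRAP proteins, signal peptidase, oligosaccharyltransferase or tail-anchored protein targeting. This gave 39 of the 55401 genes counted. Rows were matched by symbol and not by measured values, but the list was chosen with earlier results of these data known. The RNA-seq data comprised 11 libraries from 4 mice: 4 of beta cells with the label NNAT-positive, 4 of beta cells with the label NNAT-negative and 3 of non-beta cells. Mice 1, 2 and 3 gave each fraction, whereas mouse 4 lacked a non-beta library. The animals of all 3 groups were male, chow-fed, C57BL6/J and 10 weeks old by the labels (the study's text gives a younger age). They all carried RIP-Cre, in which the rat insulin promoter drives Cre, with STOP-tdTomato and Nnat-EGFP. Beta cells were thus the cells in which RIP-Cre had switched on tdTomato, and the NNAT fractions were set by eGFP from a transgenic reporter under the *Nnat* promoter and enhancers, not by NNAT protein.

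Proteins bound for secretion carry a signal peptide that SRP recognises on the ribosome and delivers to the SRP receptor on the ER membrane. The chain then passes through the Sec61 channel, signal peptidase removes the signal peptide, and oligosaccharyltransferase transfers a preassembled glycan from dolichol to asparagines of the growing chain. In beta cells the most abundant client is preproinsulin, which takes this route and loses its signal peptide in the ER. Neuronatin, encoded by *Nnat*, is a small membrane protein that the study ties to signal peptidase, so the question for the beta cell fractions was whether the genes of this machinery differ with it. By gene set enrichment, the study reported SRP-dependent targeting as enriched in its adult NNAT-positive beta cells. It also reported signal peptidase and translocon genes as enriched in *Nnat*-positive beta cells of late embryos. No gene set test was run here, and genes were tested singly.

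Total counts were between 30420352 and 43238376 per library, and a floor of 3 counts corresponded to at most 0.0986 CPM. The check of the labels was *Nnat* itself (ENSMUSG00000067786.16). In mice 1 to 4 its level was 50.5, 46.4, 46.0 and 101 CPM under the label NNAT-positive, 74.8, 80.8, 66.5 and 153 CPM under the label NNAT-negative, and 12.9, 29.9 and 17.4 CPM in non-beta cells. Against its label, the NNAT-positive library thus had less *Nnat* in 4 of 4 mice, and the study's own results table names the beta cell fractions the other way round. The *Nnat* difference was not called (log2 difference −0.62, SE 0.17, adjusted *p*=0.444 in edgeR's quasi-likelihood test), and values of the fractions overlapped between mice. Under either naming both fractions held *Nnat* RNA, whereas the study describes NNAT expression as nearly on or off. The fractions are therefore called label-positive and label-negative throughout, by their labels and not by their content. If the names were exchanged, each difference between the beta cell fractions would turn its sign and the comparisons of the fractions with non-beta cells would change places. The labelled cell types were checked with fixed marker lists. The 7 beta cell markers summed to between 178378 and 423850 CPM in the beta cell libraries and between 10391 and 25666 CPM in the non-beta libraries. The non-beta libraries held between 123224 and 171434 CPM of 5 alpha cell markers, 6463 to 12814 CPM of 2 delta cell markers and 1857 to 3690 CPM of 2 PP cell markers. They also held 14363 to 55411 CPM of 7 acinar markers, 2560 to 6136 CPM of 4 stellate markers, 1532 to 1743 CPM of 4 endothelial markers, 246 to 631 CPM of 4 leukocyte markers and 282 to 457 CPM of 4 ductal markers, so they were a mixture and not endocrine cells alone. In the beta cell libraries the endothelial, leukocyte and stellate lists each summed to at most 5.14 CPM. Of their 12 genes, 1 (*Cdh5*) had 0 counts in every label-negative library. The acinar list reached 1956 CPM in a label-positive library and the ductal list was between 214 and 275 CPM. Most of this ductal sum was *Krt7*, with means of 211 and 224 CPM in label-positive and label-negative libraries and 113 CPM in non-beta cells. The ductal markers *Krt19*, *Sox9* and *Spp1* went the other way and were lower in both beta cell fractions, with log2 differences from −2.93 to −5.34.

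Of the 39 members, *Srp54b* had 0 counts in each of the 11 libraries, and the other 38 passed the filter on low counts and were tested. These genes were abundant, and they were higher in beta cells as a group. They took between 0.822 and 0.968% of all counts in the beta cell libraries and between 0.492 and 0.573% in the non-beta libraries, although *Ins1* and *Ins2* alone made up 17.8 to 34.4% of each beta cell library. Against non-beta cells, edgeR's quasi-likelihood test at a Benjamini-Hochberg adjusted *p* below 0.01 called 33 members higher and 2 lower in label-positive libraries, where 15.8% of all 17424 tested genes were called higher and 19.1% lower. In label-negative libraries it called 32 members higher and 2 lower, where 15.6% of all genes were called higher and 21.3% lower. The members not called were *Stt3b*, *Sec11a* and *Get4* in both comparisons and *Sec61g* in the second. The median log2 difference of the members was 0.80 in the first comparison, where that of all tested genes was −0.06, and 0.78 in the second, where that of all genes was −0.13. Both comparisons use the same 3 non-beta libraries.

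Within single mice the picture was the same. The median log2 difference of the 38 members between the label-positive library and the non-beta library was 0.91 in mouse 1, 0.68 in mouse 2 and 0.82 in mouse 3, and 35 members were higher in 3 of 3 mice. For all genes the medians were −0.02, −0.08 and −0.04, and 48.2, 46.5 and 47% of genes were higher. Between the label-negative library and the non-beta library the median of the members was 0.85, 0.68 and 0.75, and again 35 members were higher in 3 of 3 mice. For all genes the medians were −0.14, −0.18 and −0.06, and 45, 41.4 and 46.6% of genes were higher. The share of all genes higher in 3 of 3 mice was not computed. With total counts in place of TMM scaling the median of all genes moved to −0.22 and −0.31 and that of the members to 0.64 and 0.59. Their distance stayed at 0.86 and 0.90 on the log2 scale, which is no test, since a change of scaling shifts all genes nearly alike. Scaling by total counts called 27 and 25 members higher and 2 lower in each comparison. Over all genes it called 1907 higher and 3759 lower in the first comparison and 1798 and 4304 in the second, against 2746 and 3326 and 2711 and 3709 with TMM. In bulk libraries fewer cells of a type and less RNA per cell cannot be told apart, and the part that the mixture of cells in the non-beta fraction had in these differences was not tested.

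**Figure D1:**
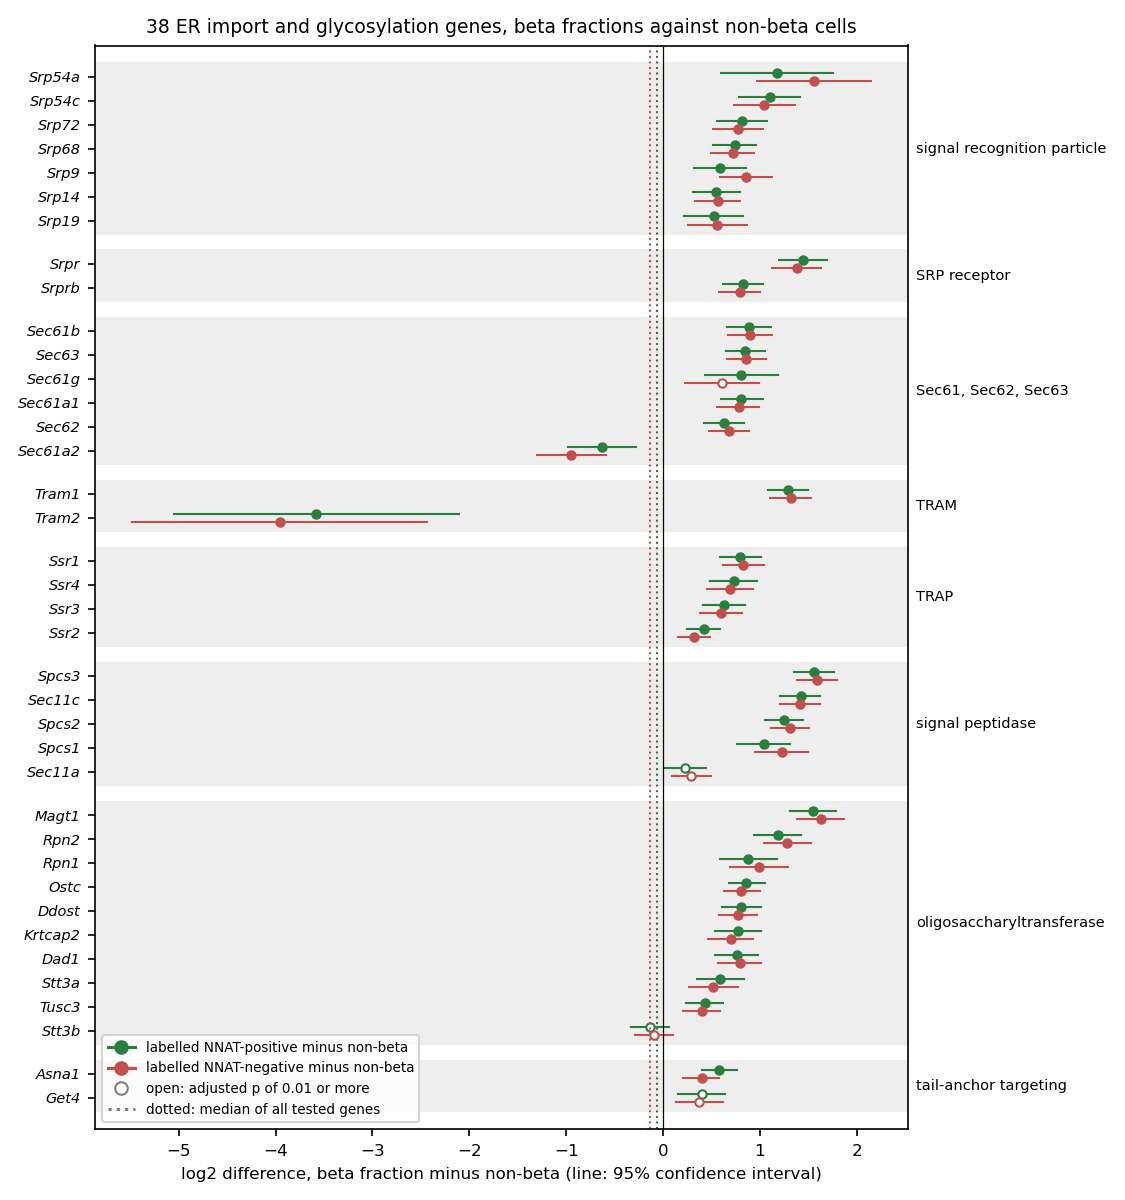
log2 differences of the 38 tested members between each labelled beta cell fraction and non-beta cells, grouped by complex, from edgeR's fit with the mouse as a block (all 11 libraries). Points are estimates, lines 95% confidence intervals, open points members at an adjusted p of 0.01 or more, and dotted lines the medians of all tested genes (−0.06 and −0.13). Nearly all members lie to the right of both dotted lines, while *Tram2* and *Sec61a2* lie to the left and *Stt3b* and *Sec11a* near 0.

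Signal peptidase was the complex with the highest median log2 difference among those with more than 2 tested members, at 1.25 for label-positive libraries and 1.31 for label-negative ones against non-beta cells. Of its 5 genes, 4 were called higher in both comparisons. The catalytic subunit exists as 2 paralogues, *Sec11a* and *Sec11c*, of which each complex holds 1, beside the non-catalytic subunits encoded by *Spcs1*, *Spcs2* and *Spcs3*. *Sec11c* (chromosome 18 of GRCm38, from 65800515 to 65817684, plus strand) had 157, 194, 162 and 136 CPM in mice 1 to 4 in label-positive libraries, 153, 188, 155 and 149 CPM in label-negative ones, and 60.8, 62.7 and 64.8 CPM in non-beta cells. Every beta cell library was thus above every non-beta library, by 2.67-fold and 2.66-fold in the fit (log2 difference 1.42, SE 0.09, adjusted *p*=1.14e-06, and 1.41, SE 0.09, adjusted *p*=1.04e-06, edgeR's quasi-likelihood test).

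*Sec11a* (chromosome 7, from 80904889 to 80947780, minus strand) had 78.2, 67.2, 89.6 and 75.3 CPM, 76.4, 79.9, 85.7 and 80.5 CPM, and 68.6, 54.5 and 76.9 CPM in the same order. Its groups overlapped, and the log2 differences of 0.23 (95% CI 0.02 to 0.44, adjusted *p*=0.0668 in edgeR's test) and 0.29 (0.09 to 0.50, adjusted *p*=0.0241) were not called. Besides this, *Sec11a* shares 163 exonic bases with *Nmb* on its own strand and 216 with *Gm16171* on the other. The study's text does not say whether counting used the strand, which would in any case not separate genes on the same strand. How reads at such bases were counted is thus not known here.

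The largest difference of the complex was that of *Spcs3* (chromosome 8, from 54520433 to 54529998, minus strand), which encodes the subunit SPC22/23. It had 665, 615, 714 and 487 CPM in label-positive libraries, 646, 631, 703 and 534 CPM in label-negative ones and 204, 217 and 247 CPM in non-beta cells. The lowest beta cell library, that of mouse 4, still stood well above the highest non-beta library. In the fit *Spcs3* was 2.95-fold and 3.00-fold higher than in non-beta cells (log2 difference 1.56 and 1.59, SE 0.09 each, adjusted *p*=6.97e-07 and 5.59e-07 in edgeR's quasi-likelihood test), the smallest adjusted *p* of any member in each comparison. *Spcs2* (chromosome 7, from 99837569 to 99863462, minus strand) had 433, 410, 481 and 372 CPM, 440, 437, 472 and 414 CPM, and 177, 165 and 210 CPM in the same order. *Spcs1* (chromosome 14, from 30999826 to 31001672, minus strand) had 175, 169, 163 and 130 CPM, 190, 216, 174 and 146 CPM, and 81.2, 70.3 and 96.2 CPM. Neither gene overlapped between beta and non-beta libraries, and their log2 differences were 1.25 and 1.31 for *Spcs2* and 1.04 and 1.23 for *Spcs1*. *Spcs1* shares 252 exonic bases with *Glt8d1* on the opposite strand and *Spcs3* 75 with *Asb5*.

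**Figure D2:**
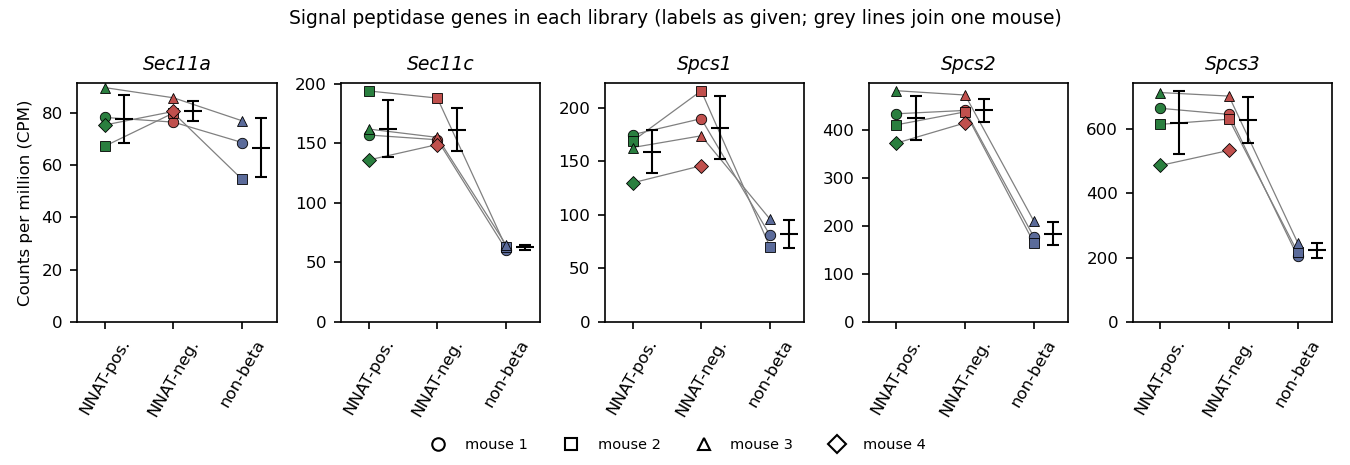
CPM of the 5 signal peptidase genes in each of the 11 libraries by labelled fraction, with the axis from 0. Symbols mark the mouse, grey lines join the libraries of 1 mouse, and the black mark beside each group is its mean with the SD (n=4, 4 and 3). *Sec11c*, *Spcs1*, *Spcs2* and *Spcs3* are higher in each beta cell library than in any non-beta library, whereas *Sec11a* overlaps and the beta cell fractions overlap for each gene.

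SRP is built of 6 proteins on an RNA, of which SRP54 binds the signal peptide and SRP9 with SRP14 slows elongation. All 7 tested SRP genes were called higher in both beta cell fractions than in non-beta cells, with log2 differences from 0.53 to 1.18 for label-positive libraries and from 0.56 to 1.56 for label-negative ones. The count of 7 holds for the setting used here, since *Srp19* lost its call in 10 of 11 alternatives in the first comparison and 8 of 11 in the second. The largest difference was that of *Srp54a*, whose first call was lost without the block or without mouse 1, 3 or 4, with 10.6, 7.05, 12.1 and 11.1 CPM in label-positive libraries, 11.5, 13.2, 13.9 and 12.9 CPM in label-negative ones and 4.58, 2.44 and 6.83 CPM in non-beta cells. Its neighbour *Srp54c* had 26.4, 17.7, 30.8 and 28.6 CPM, 26.2, 17.7, 30.7 and 24.8 CPM, and 10.2, 10.1 and 14.8 CPM, and was also higher in every beta cell library than in any non-beta library. *Srp54a*, *Srp54b* and *Srp54c* lie in a row on the plus strand of chromosome 12 (from 55080262 to 55115367, 55155104 to 55189573 and 55230168 to 55263836) and are near-identical copies. How reads that match more than 1 copy were counted is not stated, so the level of each copy, and the 0 counts of *Srp54b*, are uncertain.

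Both genes of the SRP receptor, which docks SRP at the membrane, were called higher, with a median log2 difference of 1.14 and 1.08, where that of the SRP genes was 0.74 and 0.77. The difference between the complexes was not tested. *Srpr*, its alpha subunit, had 787, 778, 809 and 546 CPM in label-positive libraries, 777, 672, 791 and 540 CPM in label-negative ones and 249, 293 and 327 CPM in non-beta cells. No beta cell library reached down to the non-beta values, although mouse 4 was the lowest in both fractions. *Srpr* was 2.73-fold and 2.60-fold higher than in non-beta cells (log2 difference 1.45 and 1.38, SE 0.11 each, adjusted *p*=3.19e-06 and 4.06e-06 in edgeR's quasi-likelihood test). The beta subunit *Srprb*, which anchors it, changed by 0.83 and 0.79 on the log2 scale (SE 0.09 each), and shares 888 exonic bases with *Gm20425* on its own strand.

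Of the 6 genes of the Sec61 channel and its partners Sec62 and Sec63, 5 were called higher and 1 lower in label-positive libraries, and 4 higher and 1 lower in label-negative ones. The gene called lower encodes a second form of the pore subunit. The usual pore gene *Sec61a1* had 424, 363, 560 and 464 CPM in label-positive libraries, 426, 356, 530 and 451 CPM in label-negative ones and 250, 230 and 275 CPM in non-beta cells, a log2 difference of 0.81 and 0.78 (SE 0.10 each). *Sec61a2* was low everywhere, with 8.51, 6.91, 6.86 and 23.1 CPM, 6.21, 5.85, 5.60 and 19.2 CPM, and 11.9, 11.2 and 11.1 CPM. In mice 1, 2 and 3 both beta cell libraries were below the non-beta library, but the beta cell libraries of mouse 4, which has no non-beta library, were above all of them. The mean of *Sec61a2* was 11.4 ± 7.90 CPM (SD, n=4) in label-positive libraries while non-beta cells had 11.4 ± 0.445 CPM (SD, n=3). Its log2 differences of −0.63 (adjusted *p*=0.00746 in edgeR's test) and −0.95 (adjusted *p*=0.000664) thus rest on the mouse as a block: without it they were 0.00 and −0.30 (adjusted *p*=0.996 and 0.681). *Sec61a2* shares 909 exonic bases with *Nudt5* on the opposite strand.

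The small channel subunit *Sec61b* had the largest rise of the complex, with 109, 92.8, 116 and 87.4 CPM in label-positive libraries, 116, 99.7, 106 and 86.2 CPM in label-negative ones and 50.3, 57.6 and 63.5 CPM in non-beta cells (log2 difference 0.89 and 0.90, SE 0.10 each). Its groups did not overlap. *Sec63*, which recruits the chaperone BiP to the channel, changed by 0.85 and 0.86 and *Sec62* by 0.63 and 0.68. *Sec61g*, the remaining subunit, was called for label-positive libraries (0.81) and had a log2 difference of 0.61 (95% CI 0.23 to 0.99, adjusted *p*=0.0136 in edgeR's test) for label-negative ones.

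TRAM proteins sit beside the channel and contact incoming chains. The 2 paralogues moved in opposite directions. *Tram1* had 527, 507, 591 and 436 CPM in label-positive libraries, 557, 471, 599 and 469 CPM in label-negative ones and 199, 209 and 250 CPM in non-beta cells, and was 2.45-fold and 2.49-fold higher in beta cells (log2 difference 1.29 and 1.32, adjusted *p*=2.52e-06 and 2.05e-06, edgeR's quasi-likelihood test). *Tram2*, which has been linked to collagen synthesis, had 1.77, 1.32, 1.65 and 3.40 CPM, 0.102, 2.47, 1.44 and 2.32 CPM, and 27.4, 15.9 and 14.2 CPM. It was thus low in beta cells, with 3 counts in the label-negative library of mouse 1 and between 52 and 149 counts in the other beta cell libraries. The log2 difference of *Tram2* was −3.58 (SE 0.66, adjusted *p*=0.00128 in edgeR's test) and −3.96 (SE 0.68, adjusted *p*=0.000789), the largest of any member. The stellate markers *Col1a1*, *Col1a2* and *Col3a1*, which are collagens, differed in the same direction, with means of 933, 1218 and 1827 CPM in non-beta cells and at most 1.20 CPM in the beta cell fractions. Their part in the *Tram2* difference was not tested.

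The 4 TRAP genes, *Ssr1* to *Ssr4*, encode a complex that helps some signal peptides open the channel. All 4 were called higher in both comparisons, with log2 differences from 0.42 to 0.80 and from 0.32 to 0.83. *Ssr1* had the largest, with 446, 342, 480 and 394 CPM in label-positive libraries, 445, 352, 481 and 420 CPM in label-negative ones and 240, 224 and 253 CPM in non-beta cells. The beta and non-beta values of *Ssr1* did not overlap, whereas *Ssr2*, the least changed, had 157 CPM in the label-negative library of mouse 2 and up to 179 CPM in non-beta cells.

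Oligosaccharyltransferase exists in 2 forms that share the ribophorins *Rpn1* and *Rpn2*, *Ddost* and *Dad1*. The form with the catalytic subunit STT3A, with *Krtcap2* and *Ostc*, is attached to the translocon, and the form with STT3B, with *Magt1* or *Tusc3*, works on sites that the first one skipped. Of the 10 members, 9 were called higher in both comparisons and the exception was *Stt3b*. *Stt3a* had 404, 361, 496 and 389 CPM in label-positive libraries, 404, 290, 489 and 398 CPM in label-negative ones and 256, 258 and 307 CPM in non-beta cells, and only the second of these, with its low value in mouse 2, overlapped non-beta cells. The log2 differences were 0.59 and 0.52 (SE 0.11 each, adjusted *p*=0.00137 and 0.00297, edgeR's quasi-likelihood test). *Stt3b* had 159, 130, 172 and 124 CPM, 164, 127, 184 and 127 CPM, and 169, 157 and 176 CPM, so that its 3 groups overlapped. Its log2 differences were −0.13 (95% CI −0.33 to 0.06) and −0.09 (95% CI −0.29 to 0.10). The first of them was called by DESeq2 (−0.23, adjusted *p*=0.00217) but not by edgeR's test (adjusted *p*=0.23).

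The redox subunits of the STT3B form rose all the same. *Magt1* had the largest difference of the complex, with 525, 514, 480 and 382 CPM in label-positive libraries, 503, 579, 485 and 436 CPM in label-negative ones and 153, 173 and 186 CPM in non-beta cells. Its lowest beta cell value was above the highest non-beta value, and it was 2.93-fold and 3.09-fold higher in beta cells (log2 difference 1.55 and 1.63, adjusted *p*=1.93e-06 and 1.30e-06 in edgeR's quasi-likelihood test). *Magt1* also transports magnesium. *Tusc3*, its paralogue, had 149, 147, 146 and 115 CPM, 144, 141, 135 and 123 CPM, and 98.6, 112 and 113 CPM, with log2 differences of 0.43 and 0.40. Among the shared subunits *Rpn2* changed by 1.19 and 1.28, *Rpn1* by 0.88 and 0.99, *Ddost* by 0.81 and 0.77 and *Dad1* by 0.76 and 0.79. *Ostc* and *Krtcap2* of the STT3A form changed by 0.86 and 0.81 and by 0.77 and 0.70.

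Tail-anchored proteins enter the membrane after translation, carried by the ATPase that *Asna1* encodes and handed over by a complex that holds GET4. *Asna1* had 66.4, 70.6, 61.1 and 59.2 CPM in label-positive libraries, 57.3, 56.8, 56.2 and 55.5 CPM in label-negative ones and 42.5, 44.8 and 43.8 CPM in non-beta cells. It was called higher in both comparisons, by 0.58 and 0.40 on the log2 scale. *Get4* had log2 differences of 0.40 (95% CI 0.15 to 0.64, adjusted *p*=0.0133 in edgeR's test) and 0.37 (0.13 to 0.62, adjusted *p*=0.0178), which were not called.

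Levels were compared between genes only per kilobase of transcript, which depends on the transcript taken as the length. With the principal transcript, the highest mean levels in label-positive libraries were those of *Ssr4* (285 CPM per kilobase), *Rpn2* (271) and *Ddost* (248). With all exonic bases as the length they were those of *Ddost* (248 CPM per kilobase), *Srpr* (217) and *Spcs3* (179). In non-beta cells *Ddost* was among the first 2 genes with either length, at 155 CPM per kilobase. The lowest of the tested members in beta cells was *Tram2* with either length.

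Ratios of paralogues within a library do not depend on its scaling and were compared over libraries. The log2 ratio of *Sec11c* to *Sec11a* in CPM was between 0.85 and 1.53 in label-positive libraries, between 0.85 and 1.23 in label-negative ones and between −0.25 and 0.20 in non-beta cells. The ratio of *Stt3a* to *Stt3b* was between 1.35 and 1.65, between 1.19 and 1.65, and between 0.60 and 0.80, and that of *Magt1* to *Tusc3* between 1.71 and 1.82, between 1.81 and 2.04, and between 0.62 and 0.73. *Tram1* to *Tram2* lay between 6.98 and 8.53, between 7.55 and 11.81 (the highest from the library with 3 counts of *Tram2*), and between 2.86 and 4.14. For these 4 pairs each beta cell library was above each non-beta library, and the difference had the same sign in 3 of 3 mice for both fractions. With 4 libraries against 3, the exact two-sided permutation test gave *p*=0.0571 for each of them, the smallest value that this design allows, and an adjusted *p* of 0.103 over the 18 comparisons of ratios, so the test could not pass 0.05.

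For *Sec61a1* to *Sec61a2* the ranges of the log2 ratio were 4.32 to 6.34, 4.55 to 6.55 and 4.36 to 4.62, and overlapped through mouse 4 (exact permutation *p*=0.229 and 0.114 for 4 against 3 libraries, without regard to the mouse). Within mice 1, 2 and 3 the ratio of *Sec61a1* to *Sec61a2* was higher in beta than in non-beta cells in 3 of 3 mice for both fractions, by 1.24 to 1.72 and by 1.56 to 1.93. *Srp54a* to *Srp54c* did not differ in a fixed direction between beta and non-beta cells, with ranges of −1.36 to −1.31, −1.18 to −0.42 and −2.03 to −1.11. Between the beta cell fractions the ratio of *Srp54a* to *Srp54c* did not overlap and was lower in the label-positive library in 4 of 4 mice, by −0.41 on average (exact two-sided permutation *p*=0.0286, the smallest that 4 against 4 libraries allow, adjusted *p*=0.103), with the limit on counts of these copies given above. Per kilobase of the principal transcript, the mean level of *Sec11c* was 3.28, 3.14 and 1.47 times that of *Sec11a* in label-positive, label-negative and non-beta libraries. With all exonic bases as the length it was 1.42, 1.35 and 0.636 times, so which of the paralogues was the more abundant in non-beta cells depended on the length taken.

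**Figure D3:**
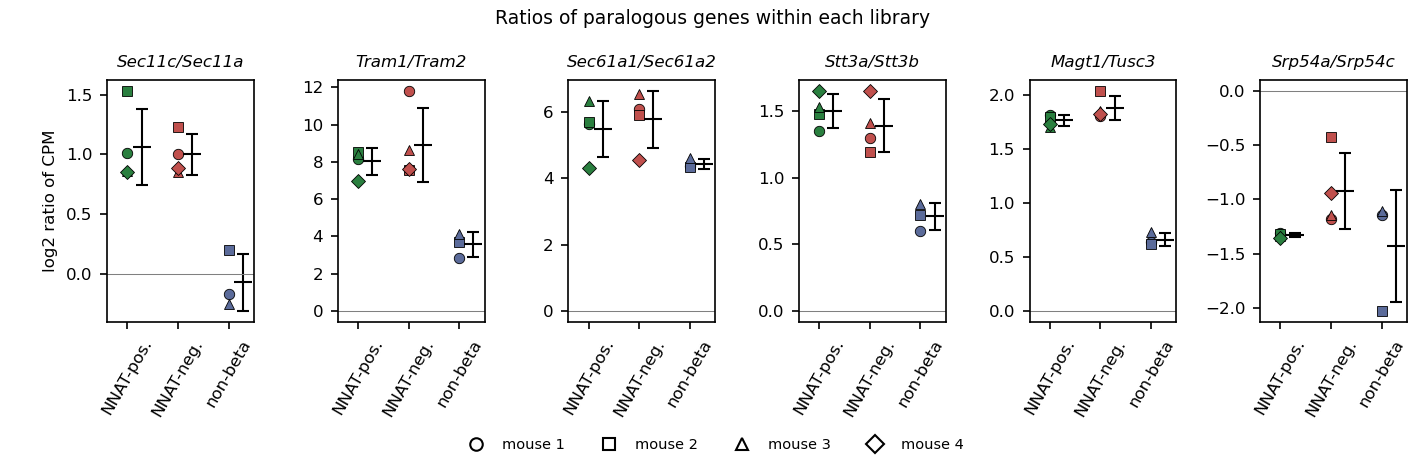
log2 ratio of CPM of 6 pairs of paralogues within each of the 11 libraries, by labelled fraction. Symbols mark the mouse, and the black mark beside each group is its mean with the SD (n=4, 4 and 3). For *Sec11c/Sec11a*, *Tram1/Tram2*, *Stt3a/Stt3b* and *Magt1/Tusc3* the beta cell libraries lie above the non-beta libraries, while for *Sec61a1/Sec61a2* mouse 4 reaches the non-beta values and for *Srp54a/Srp54c* both beta cell fractions overlap the non-beta libraries but not each other.

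Since most members rose together, their promoters were searched for the letters of the ER stress element, which is read by the factors of the unfolded protein response. RefSeq (GRCm38.p6) gave a start site for 30 of the 39 members, and the 250 bases before each start were searched on both strands. The whole element, CCAAT followed by 9 bases and CCACG, was found in 0 of the 30 members and in 0.113% of all 32851 windows, and the shorter second form in 0 members and 0.0304% of windows. The motif TGACGTG was found in 1 member, *Srpr*, and in 1.65% of all windows. The 5 letters CCACG alone occurred in 16 members (53.3%) and in 28.3% of windows, and CCAAT in 14 members (46.7%) and in 33.8% of windows. Such short motifs are counted here as letters and not as binding sites, and genes with several start sites have several windows. A member counted if any of its windows matched, whereas the share of all windows counts each window, so the 2 percentages are not strictly alike. The windows of *Asna1*, *Rpn1*, *Sec63* and *Stt3b* are shown because they are the 4 that hold both short motifs and no annotated exon. *Stt3b* was not called by edgeR and the others were called higher in both comparisons. They are written 5′ to 3′ on the strand of the gene, each ending at the base before the RefSeq start, and capitals mark CCACG and CCAAT or, on the other strand, CGTGG and ATTGG.
*Asna1* (chr8:85025288-85025537, minus strand): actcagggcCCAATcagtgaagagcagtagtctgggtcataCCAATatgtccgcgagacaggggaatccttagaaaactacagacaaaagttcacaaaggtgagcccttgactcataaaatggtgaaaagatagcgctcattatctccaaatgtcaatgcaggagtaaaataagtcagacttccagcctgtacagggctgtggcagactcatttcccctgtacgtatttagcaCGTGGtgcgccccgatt
*Rpn1* (chr6:88084223-88084472, plus strand): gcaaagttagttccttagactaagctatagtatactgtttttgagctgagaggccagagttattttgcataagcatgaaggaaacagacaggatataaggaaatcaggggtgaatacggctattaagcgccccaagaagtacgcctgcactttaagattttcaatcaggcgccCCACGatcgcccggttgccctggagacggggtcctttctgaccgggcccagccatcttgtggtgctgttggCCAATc
*Sec63* (chr10:42761246-42761495, plus strand): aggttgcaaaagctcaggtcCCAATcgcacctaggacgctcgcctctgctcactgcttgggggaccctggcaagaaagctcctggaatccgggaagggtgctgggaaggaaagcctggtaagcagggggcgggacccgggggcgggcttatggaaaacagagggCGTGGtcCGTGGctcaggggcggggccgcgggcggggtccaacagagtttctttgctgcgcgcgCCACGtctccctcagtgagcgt
*Stt3b* (chr9:115310469-115310718, minus strand): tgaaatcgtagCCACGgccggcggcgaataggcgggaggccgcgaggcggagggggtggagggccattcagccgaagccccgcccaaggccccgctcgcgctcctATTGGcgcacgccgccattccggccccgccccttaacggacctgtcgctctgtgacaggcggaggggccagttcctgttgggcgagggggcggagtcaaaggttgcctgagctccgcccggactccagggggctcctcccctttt

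*Rpn1* had 465, 465, 447 and 361 CPM in label-positive libraries and 271, 201 and 273 CPM in non-beta cells. Whether these motifs bear on the levels of any member was not tested.

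Between the beta cell fractions no member was called, as edgeR's quasi-likelihood test gave 0 of 38 an adjusted *p* below 0.01, where 0.0517% of all tested genes (9 of 17424) were called. *Nnat* itself was not among these 9 genes, so the fractions compared were not clearly separated by *Nnat* RNA. DESeq2 also called 0 members, where over all genes it called 123 higher and 14 lower. The median log2 difference of the members was 0.01, where that of all genes was 0.05, and it lay between −0.03 and 0.04 under the other scalings, so it has no fixed sign. Differences ranged from −0.38 (*Srp54a*) to 0.38 (*Tram2*), and the smallest adjusted *p* of any member was 0.834. The median SE of the members was 0.09, where that of all genes was 0.20. The 95% confidence interval lay within 0.5 of 0 on the log2 scale for 33 of the 38 members and within 1 (2-fold) for 37, all but *Tram2*.

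At an unadjusted *p* below 0.05 the same test gave 2 members, beside 969 of all genes (5.56%). *Srp9*, of the elongation-slowing part of SRP, had 55.5, 82.2, 63.8 and 54.7 CPM in mice 1 to 4 in label-positive libraries, 66.7, 115, 69.0 and 62.7 CPM in label-negative ones and 37.4, 48.0 and 48.2 CPM in non-beta cells. The values of the beta cell fractions overlapped between mice, but within each mouse *Srp9* was lower in the label-positive library, with a log2 difference of −0.27 (SE 0.11, adjusted *p*=0.834 in edgeR's test). *Srp9* shares 784 exonic bases with *Gm17968* on the opposite strand. *Asna1* differed the other way, by 0.18 (SE 0.07, adjusted *p*=0.834 in edgeR's test), with values that did not overlap between the fractions and were higher in the label-positive library in 4 of 4 mice.

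The signal peptidase genes lay between −0.19 and 0.00 on the log2 scale. *Spcs1* was the furthest from 0, at −0.19 (SE 0.11, 95% CI −0.43 to 0.05, adjusted *p*=0.895 in edgeR's test), and was lower in the label-positive library in 4 of 4 mice, with differences of −0.12, −0.35, −0.09 and −0.17 in log2 CPM. *Sec11a* (−0.07), *Spcs2* (−0.06), *Spcs3* (−0.03) and *Sec11c* (0.00), with SEs of 0.08 each, had no common direction over the mice. The mean summed level of the 5 genes was 1443 ± 175 CPM in label-positive libraries, 1493 ± 117 CPM in label-negative ones (SD, n=4 each), with 619 ± 67.4 CPM (SD, n=3) for the non-beta fraction. These SDs are spreads between mice and do not measure the spread of the difference within mice, which was not tested for the sum.

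Counting mice, 4 members (*Srpr*, *Sec61a2*, *Ssr2* and *Asna1*) were higher in the label-positive library in 4 of 4 mice and 3 (*Srp54a*, *Srp9* and *Spcs1*) lower in 4 of 4. Over all genes, 57.3, 62.7, 48.1 and 52.6% were higher in the label-positive library of mice 1 to 4. The share of all genes with 1 direction in 4 of 4 mice was not computed, so these counts are no result about the members. *Sec61a2* had a log2 difference of 0.31 (SE 0.14, adjusted *p*=0.885, edgeR's quasi-likelihood test). *Srp54a* had one of −0.38 (SE 0.22), of which mouse 2 contributed the most, with a difference of −0.90 in log2 CPM. Alpha, delta and PP cell RNA moved with the fractions too. The markers summed to 2817 to 4075 against 1586 to 2486 CPM for alpha cells, 1331 to 2409 against 517 to 1018 CPM for delta cells and 300 to 421 against 89 to 159 CPM for PP cells, each higher in label-positive libraries. Their part in the differences of these members was not tested.

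**Figure D4:**
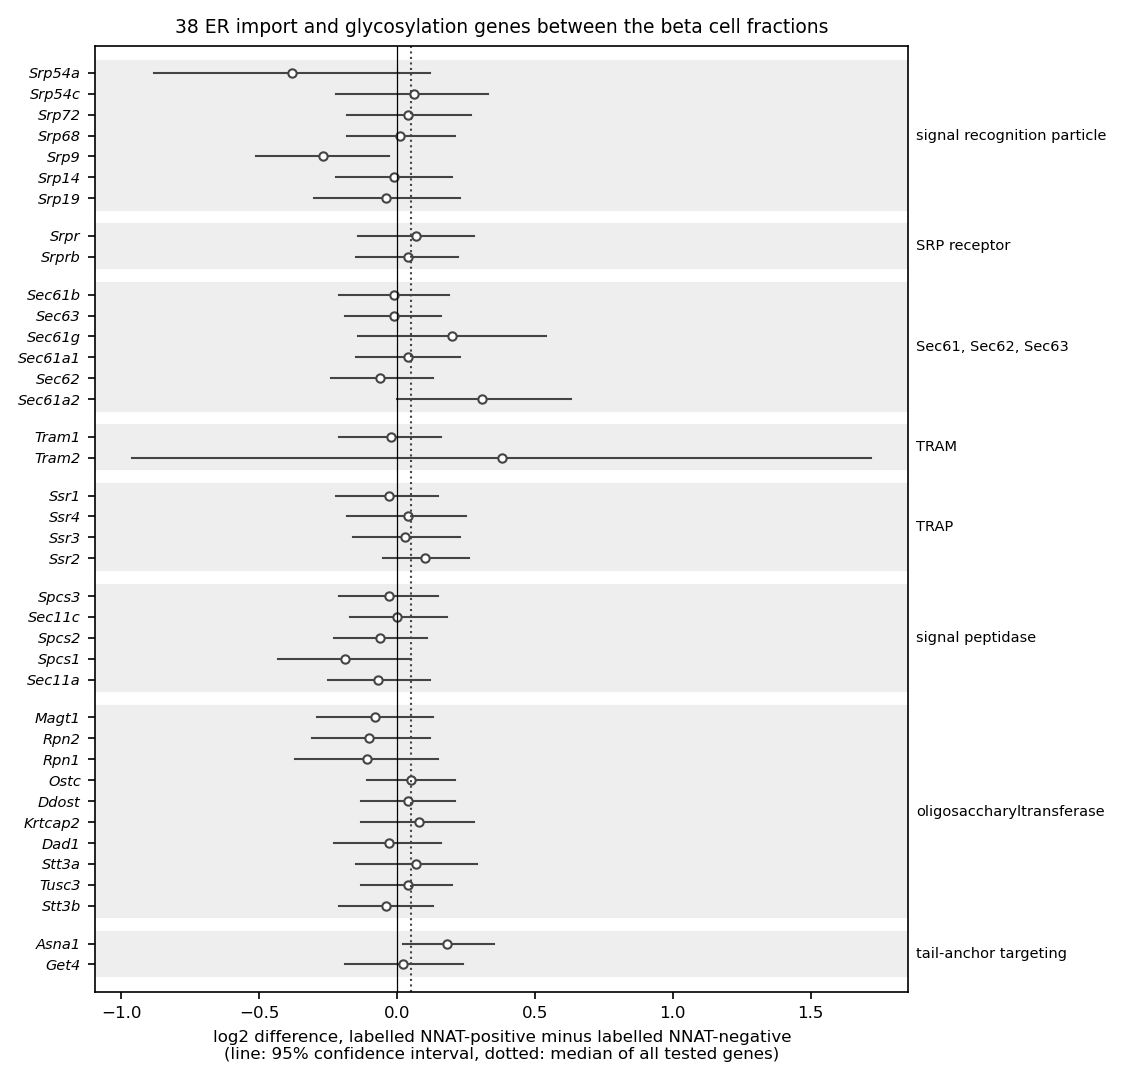
log2 differences of the 38 tested members between the label-positive and label-negative libraries (4 each), grouped by complex, from edgeR's fit with the mouse as a block. Points are estimates and lines 95% confidence intervals, the dotted line is the median of all tested genes (0.05), and all points are open since none had an adjusted p below 0.01. Most intervals cross 0 and are narrow, while that of *Tram2* is wide.

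Other genes of the pathway were followed with fixed lists of 62 genes, all of which were tested. Against non-beta cells, 30 of the 62 were called higher and 0 lower in label-positive libraries, and 28 higher and 0 lower in label-negative ones, with median log2 differences of 0.45 and 0.44. Between the beta cell fractions 0 of 62 were called. Over all tested genes 15.8% and 15.6% were called higher. With total counts 19 of the 62 were called higher in the first comparison. In the second, 16 were called higher with only the 2 groups compared (also without mouse 4) and 17 without mouse 3. Of 11 genes for glycan trimming and the folding checkpoint, 9 were called higher in both comparisons, led by *Uggt1*, the glucosyltransferase that senses misfolded glycoproteins (log2 difference 1.72 and 1.67, SE 0.09 each). All 3 further subunits and partners of oligosaccharyltransferase were called higher, led by the lectin *Mlec* (1.14 and 1.16).

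Of 23 genes that assemble the dolichol-linked donor, 10 and 8 were called higher, led by the mannosyltransferases *Alg2* (1.14) for label-positive libraries and *Alg1* (1.08) for label-negative ones. Of 7 genes of the multipass translocon, 4 were called higher in both comparisons, led by *Tmem147* (1.14 and 1.02). Signal peptide peptidase (*H13*), which cleaves signal peptides after their release, was called higher by 0.77 and 0.82, as was 1 of 2 ribosome-bound proteins in its list. Of 10 genes of the ER membrane protein complex, 2 were called higher in each comparison, led by *Emc4* (0.70 and 0.66), and 0 of 5 tail-anchor genes outside the set were called, with log2 differences from −0.05 to 0.15 and from −0.07 to 0.11.

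**Figure D5:**
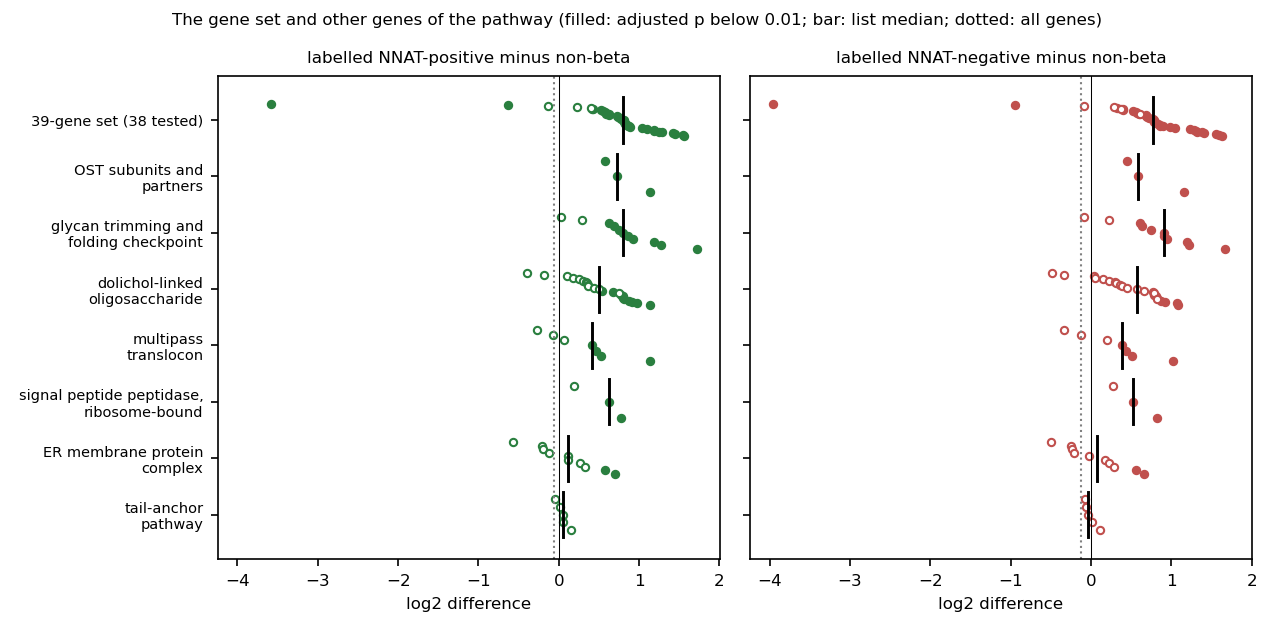
log2 differences of the 38 tested members and of 62 other genes of the pathway, by list, between each labelled beta cell fraction and non-beta cells. Each point is a gene (filled at an adjusted p below 0.01), black bars are list medians and dotted lines the medians of all tested genes. Glycan trimming and oligosaccharyltransferase lists lie to the right like the members, and the ER membrane protein complex and tail-anchor lists lie near 0.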

How the data were processed

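RNA was extracted from FACS-sorted islet cells, and poly(A) libraries were made from 20 ng of RNA each with a directional kit. The authors aligned the reads to mm10 with STAR 2.7.1a and deposited raw gene counts for the gencode annotation, with no normalisation. The submitters' notes also name DESeq2 1.32.0, and the strand setting of the counting is not given in the sources used here. Groups, and mouse numbers shared between fractions, came from the sample titles. Of 55401 genes, 17424 passed the filterByExpr function of edgeR and were tested.

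The counts were analysed with edgeR 4.0.16 in R 4.3.3 (limma 3.58.1), with TMM scaling and a quasi-likelihood F test on all 11 libraries, with the mouse as a block. A call needed an adjusted *p* (Benjamini-Hochberg) below 0.01 and no minimum fold change. The mouse numbers pair the libraries since same-numbered libraries came from 1 mouse. Deviations of same-mouse libraries from the means of the beta cell fractions correlated at r=0.182 to 0.658 (4 pairs). Different mice averaged −0.103, but centring on the group means ties this value to that of the same mice, so it is no independent contrast. Between beta and non-beta libraries of the same mouse, r was 0.0903 to 0.125 for label-positive and 0.0321 to 0.0662 for label-negative ones (3 pairs each). CPM used TMM-scaled library sizes. A prior count of 2 was added for log2 CPM. Paralogue ratios were compared by exact two-sided permutation tests over libraries. Confidence intervals (95%) reflect the spread between libraries that remains once fraction and mouse are fitted.

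All members were accounted for. Values in each library are given for signal peptidase, the paralogues, the called member with the largest difference in each direction in each complex, and members with an unadjusted *p* below 0.05 between the beta cell fractions. The members and lists were chosen with earlier results of these data known. Alternatives were other scalings, no filter, no block, a 2-fold threshold, only the 2 groups compared, DESeq2 1.42.0 and leaving out each mouse. Against non-beta cells, the fit of only the 2 groups also left out mouse 4, which has no non-beta library. The edgeR fit was also run on simulated counts with planted changes. These counts held no differences between mice, so that run does not test the block, and no result here rests on it. Lengths and overlaps came from gencode M21 (GRCm38).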

Additional observations from a re-analysis of the deposited data

Results flagged for a closer look

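Groups of 4 libraries were searched for a highest or lowest library that stood apart, taken as a gap to its neighbour, over the group's range, above Dixon's 95% critical value. Of 40 groups tested (20 genes in both beta cell fractions), 6 had such a library, and chance gives about 1 in 20. *Sec61a2* was highest in mouse 4 in both fractions, at 23.1 CPM in the label-positive library and 19.2 CPM in the label-negative library. In the label-positive library of mouse 4, *Tusc3* (115 CPM) and *Srpr* (546 CPM) were the lowest of their groups. In the label-negative library of mouse 2, *Sec11c* (188 CPM) and *Srp9* (115 CPM) were the highest.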

How the results depend on the processing

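No member was called between the beta cell fractions under any alternative run. Their median there was −0.03 with RLE size factors, DESeq2 or only the 2 groups and −0.02 with no filter, and that of *Sec11c* −0.03 with RLE, no filter or DESeq2, −0.04 with only the 2 groups and −0.02 to 0.01 with a mouse left out. *Tram2* ranged from −0.04 (without mouse 1) to 0.93. Members called higher than non-beta cells fell to 10 in each comparison with a 2-fold threshold. Without the replicate block, 24 and 23 were called higher and 1 lower in each. With only the 2 groups, which here also left out mouse 4, 32 and 23 were called higher and 1 and 0 lower. The 2-fold threshold left 1 called lower in each comparison, and no filter 1 in the first. Leaving out a mouse gave 0 to 1 lower in the first and 1 to 2 in the second. Of the members called lower, *Sec61a2* was lost in the first comparison without any 1 of the mice, and *Tram2* without mouse 3. DESeq2 also called *Stt3b* lower in the first comparison (−0.23, adjusted *p*=0.00217) and *Sec61g* and *Get4* higher in the second. With total counts the medians were 0.64 and 0.59. For 22 members (the 20 given in each library, *Sec61g* and *Get4*), 214 of 242 alternative values in the first comparison and 219 of 242 in the second stayed on their side of the threshold, and none changed sign. The cause of these changes was not tested, beyond the smaller number of libraries or the higher threshold where these were the alternative.

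Over both comparisons calls were lost most often for *Srp19*, *Ssr2*, *Tusc3*, *Sec61a2*, *Srp14* and *Stt3a*. Genes at low counts (*Tram2*, *Sec61a2*, *Srp54a*) limit what the depth can show, and 3 non-beta libraries limit the permutation tests.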
